A study of Mus musculus with 8 samples.

Results

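The genes of DNA replication and S phase were followed on 8 microarrays of mouse mesenchymal stromal cells (MSCs), the adherent stromal cells of fat. They encode the helicase, origin licensing factors, sliding clamp, polymerases, nucleotide enzymes and G1/S regulators that copy the genome. Members were taken from a list of 38 gene symbols, matched to probe sets through the platform's gene annotation. Of these, 37 were measured, among 19505 genes in all, and Mcm7 was not matched. The cells came from the inguinal fat pad of male FVB mice aged 12 months. Cells of every group carried the pLKO.1 lentiviral backbone, and no uninfected cells were among the samples. The groups were an empty vector (2 arrays), a scramble hairpin (2 arrays) and a hairpin against Irf7, called shIRF7 (4 arrays), all grown in DMEM with fetal bovine serum. Irf7 encodes a transcription factor of the interferon response, and the series title links it to ageing of such cells. The labels name neither a clone nor the number of mice, and they do not say whether replicates came from separate cultures, infections or animals. All p-values therefore measure only the spread among the arrays at hand, which could be technical.

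In G1, the origin recognition complex, Cdc6 and Cdt1 load the ring-shaped Mcm helicase onto DNA. Cdc45 and the GINS complex then switch the helicase on, primase and polymerase alpha start new strands, and the clamp Pcna holds the other polymerases on the template. Cyclin E and E2F factors turn many of these genes on as a cell leaves G1, so that their transcripts are abundant in cycling cells and scarce in resting ones. In bulk RNA, fewer cells in S phase and less RNA per cell cannot be told apart.

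All values are log2 signals after RMA, the authors' summary of each probe set, and a difference of 1 on this scale is a 2-fold change. Values within a group are listed in the order of the replicate numbers, from 1 to 2 in the controls and from 1 to 4 in shIRF7. Irf7 itself, the check of the labels, measured 9.55 and 9.61 in empty vector, 9.56 and 9.76 in scramble, and 4.42, 5.66, 6.47 and 6.79 in shIRF7. Every shIRF7 array thus lay below every control for Irf7, a difference of -3.79 (limma adjusted p = 0.0692, exact permutation p = 0.0286, the smallest that 4 against 4 arrays allow). The 4 shIRF7 values of Irf7 lay under the 95th percentile of the negative control probe sets, so the size of its difference is uncertain. Among stromal markers 5 of 8 exceeded that percentile on every array, while Nt5e and Lum did so on none. Of 4 markers each of leukocytes, endothelial cells, adipocytes and epithelial cells, 0 exceeded it on any array. Of the S phase genes 13 of 37 exceeded it on all 8 arrays, 15 on some, and 9 on none (Orc1, Gins3, Rfc3, Pola1, Pold1, Pole, Lig1, Tk1 and E2f2), and differences of such dim genes may be understated. Empty vector replicate 1 stood apart: it was the lowest of the 8 arrays in 32 of 37 members (18.3% of all genes).

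The S phase genes separated the control arrays by replicate number. All 37 members were higher in both control replicate 2 arrays than in both control replicate 1 arrays, a pattern found in 26.6% of all genes. The median gap, replicate 2 minus replicate 1 averaged over empty vector and scramble, was 2.51, against -0.043 over all genes. It ranged from 0.51 for Pold1 to 4.36 for Cdc45. Both control replicate 2 arrays were the highest of the 8 arrays in 30 of 37 members (11.9% of all genes). In limma, fitted to the 4 control arrays with Benjamini-Hochberg adjustment over all genes, 31 of 37 members were higher in replicate 2 at an adjusted p under 0.05 (4.97% of all genes), and 0 were lower (3.3%). At an unadjusted p under 0.05, 35 were higher (13.7% of all genes). The 6 that missed the threshold were Mcm2, Gins4, Pold1, Lig1, Rrm1 and E2f2. Leaving out an array gave 32 members (empty vector replicate 1, where 4.22% of all genes were higher), 34 (scramble replicate 1, 10.9%) or 0 (replicate 2 of either control, 0 of all genes). In each case a single array stands for its replicate number and is assumed to vary like the others. The spread then comes only from the pair of the other number. Over all genes the SD of the difference was 0.325 between the control replicate 2 arrays and 0.554 between the control replicate 1 arrays. These counts therefore depend on which pair was left. When replicates 1 and 2 of all 3 groups were fitted together with the group as a block, the median gap was 1.26. In that fit 0 members passed, and 0 of all genes.

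**Figure D1:**
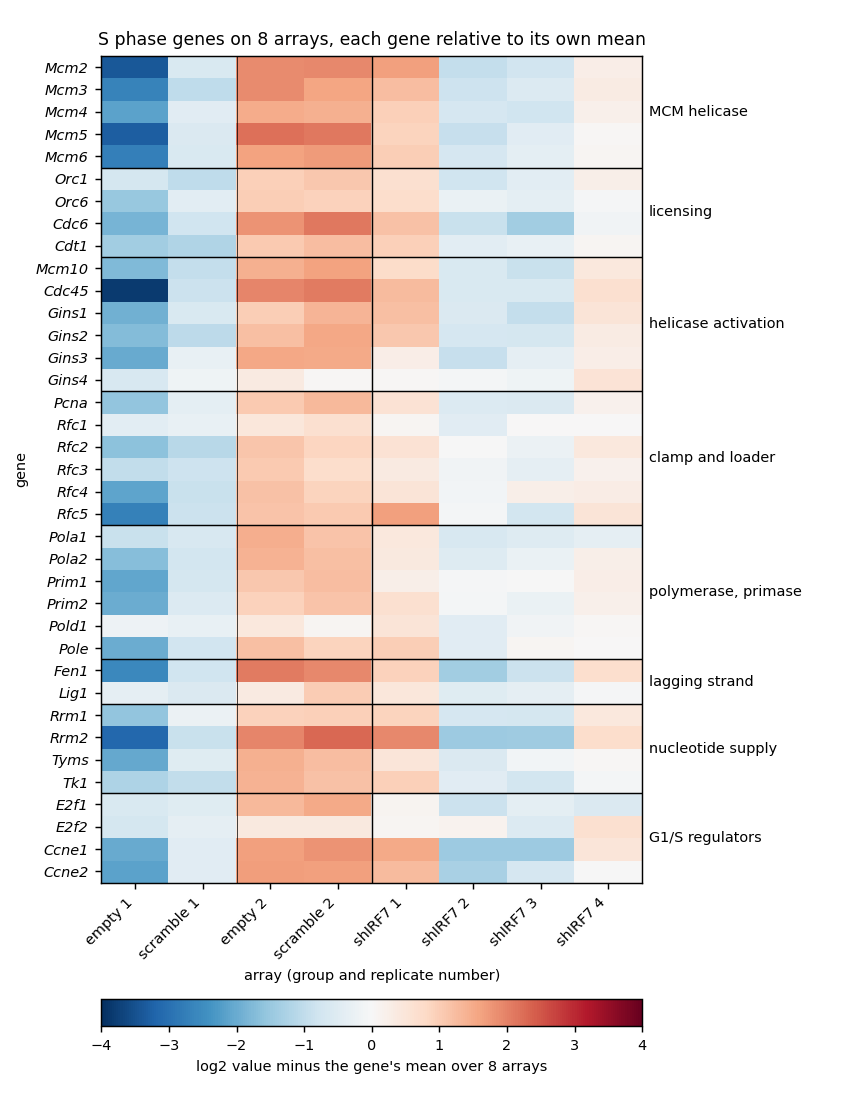
The 37 S phase genes (rows, by role) on the 8 arrays (columns), coloured by the log2 value minus the gene's own mean over the arrays. Empty vector replicate 1 is the lowest column, with a median of -1.87 over members, and replicate 2 of empty vector and scramble are the highest, with medians of 1.22 and 1.23.

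The gap was not of one size in both vectors. Its median was 3.08 in empty vector and 1.94 in scramble, and it was larger in empty vector in 33 of 37 members. The difference lay in replicate 1: scramble replicate 1 exceeded empty vector replicate 1 in 34 of 37 members, by a median of 1.21. The replicate 2 arrays lay close together, with scramble higher in 18 members and empty vector in 19, and a median difference of -0.011. The negative control probe sets differed between replicates too. Their medians were 4.21 and 4.26 in replicate 1 of empty vector and scramble and 4.55 and 4.56 in replicate 2, so both they and the S phase genes were lower in replicate 1 of the controls. In shIRF7 the negative control medians were 4.18, 4.56, 4.54 and 4.33, and there replicate 1, the lowest, had the highest S phase values. Medians of the positive control probe sets lay between 10.6 and 10.8 on all arrays. The part of array quality in the gap was not tested.

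Since all 37 members ran the same way, their promoters were read from RefSeq (assembly GRCm38.p6), in windows from 250 bases before to 50 bases after the transcription start. A window was found for 29 of 37 members, and the others are Mcm4, Gins1, Gins2, Gins4, Rfc2, Prim2, Pole and Ccne2. The letters searched for an E2F site, bound by the E2F factors that turn on S phase genes, were TTTGGCGC, TTTCCCGC, TTTCGCGC and TTTGCCGC on both strands. A gene with several windows was counted if any of them held the letters. At least 1 match was found in 12 of the 29 members with a window (41.4%), against 3.38% of measured genes with a window, and in 2.26% of all 32851 windows counted singly. The 160 bases just before the start are shown for 5 members, the one with the largest control gap in each of 5 roles among those with a match there. Capitals mark the E2F letters, which overlap in Mcm5. The stretches lie at chr8:75109349-75109508 (plus strand) for Mcm5, chr11:98907991-98908150 (plus) for Cdc6, chr8:95633399-95633558 (plus) for Gins3, chr5:151651209-151651368 (minus) for Rfc3 and chrX:93632156-93632315 (minus) for Pola1.
Mcm5: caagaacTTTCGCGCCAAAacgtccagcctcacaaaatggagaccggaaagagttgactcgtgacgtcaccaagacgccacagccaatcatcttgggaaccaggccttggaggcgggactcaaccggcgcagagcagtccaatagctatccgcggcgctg
Cdc6: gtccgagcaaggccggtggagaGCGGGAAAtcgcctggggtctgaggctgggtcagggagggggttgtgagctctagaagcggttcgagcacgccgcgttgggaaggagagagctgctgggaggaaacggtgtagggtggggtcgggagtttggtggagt
Gins3: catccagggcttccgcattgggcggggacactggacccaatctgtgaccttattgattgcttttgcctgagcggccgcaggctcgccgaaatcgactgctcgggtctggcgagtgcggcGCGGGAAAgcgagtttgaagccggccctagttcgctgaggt
Rfc3: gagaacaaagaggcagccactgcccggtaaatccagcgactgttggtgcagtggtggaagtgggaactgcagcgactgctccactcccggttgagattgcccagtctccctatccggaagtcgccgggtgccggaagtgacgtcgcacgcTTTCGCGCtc
Pola1: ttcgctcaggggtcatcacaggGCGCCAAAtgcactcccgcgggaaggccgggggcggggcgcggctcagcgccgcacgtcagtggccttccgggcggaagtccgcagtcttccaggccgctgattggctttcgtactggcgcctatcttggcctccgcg

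The E2F letters began 153 and 149 bases before the start in Mcm5, 138 in Cdc6 and Pola1, 41 in Gins3 and 10 in Rfc3. The other members with a match were Mcm3, Mcm6, Orc1, Cdt1, Pold1, Lig1 and E2f2. The control gap had a median of 2.25 in the 12 members with a match and 2.54 in the other members with a window. The CCAAT box (CCAAT on either strand) was found in 58.6% of members with a window and 42.2% of measured genes with one. The interferon-stimulated response element, to which interferon regulatory factors bind, was searched as GAAA, any 2 bases and GAAA on both strands. It was found in 0 of the 29 members with a window, against 3.94% of measured genes with one. In so few members 0 lies near that share, so it does not set them apart. A match is a run of letters, not a site shown to be bound, and a window without a match says only that these letters are not in it.

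The Mcm helicase subunits, which form the ring that unwinds DNA, had the widest gaps of any role, with a median of 3.57 over 5 members; differences between roles were not tested. Mcm5 measured 7.24 and 12.75 in empty vector, 9.96 and 12.66 in scramble, and 11.42, 9.63, 10.09 and 10.57 in shIRF7. Its control gap was 4.11 (SE 0.83, 17.2-fold, limma adjusted p = 0.0429). The other subunits ran the same way, with empty vector replicate 1 lowest and both control replicate 2 arrays highest. Mcm2 measured 7.69 and 12.97 in empty vector, 10.50 and 13.03 in scramble, and 12.72, 10.15, 10.33 and 11.35 in shIRF7. The Mcm2 gap, 3.90 (SE 0.85, 15-fold, limma adjusted p = 0.0501), lay just outside the threshold, although it was larger than those of 3 other subunits. Mcm3 measured 6.80 and 11.35 in empty vector, 8.47 and 11.07 in scramble, and 10.71, 8.67, 8.94 and 9.81 in shIRF7, and Mcm6 measured 9.15 and 13.48 in empty vector, 11.27 and 13.59 in scramble, and 12.87, 11.22, 11.48 and 11.97 in shIRF7. Mcm4, with the smallest gap of the ring at 2.75, measured 9.31 and 12.95 in empty vector, 11.01 and 12.86 in scramble, and 12.42, 10.80, 10.66 and 11.65 in shIRF7. In each of these 5 genes shIRF7 replicate 1 was the highest shIRF7 array and lay below both control replicate 2 arrays, while shIRF7 replicates 2 and 3 lay near scramble replicate 1.

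Origin licensing genes had smaller gaps, with a median of 2.18 over 4 members, all of which passed the threshold. Cdc6, the ATPase that helps load the helicase in G1, measured 5.27 and 8.92 in empty vector, 6.35 and 9.24 in scramble, and 8.32, 6.26, 5.75 and 7.01 in shIRF7. Its gap was 3.27 (SE 0.38, 9.65-fold, limma adjusted p = 0.0228). The partner loader Cdt1 measured 8.70 and 11.14 in empty vector, 8.88 and 11.31 in scramble, and 11.04, 9.65, 9.77 and 10.14 in shIRF7. In Cdt1 the 2 controls of each replicate number lay close together, and its gap of 2.44 had an SE of 0.20. The origin recognition subunit Orc1 measured 5.63 and 7.30 in empty vector, 5.33 and 7.42 in scramble, and 6.98, 5.53, 5.90 and 6.55 in shIRF7, with the smallest gap of the role, 1.88 (SE 0.21, 3.68-fold, limma adjusted p = 0.0216). Orc1 is a member in which scramble replicate 1, and not empty vector replicate 1, was the lowest array. Orc6, the smallest subunit of that complex, measured 7.75 and 10.26 in empty vector, 8.85 and 10.19 in scramble, and 9.95, 9.0, 8.88 and 9.21 in shIRF7.

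Helicase activation genes spanned nearly the full range of gaps. Cdc45, part of the active helicase at each fork, had the largest gap of all members. It measured 5.42 and 11.20 in empty vector, 8.37 and 11.31 in scramble, and 10.50, 8.65, 8.63 and 9.87 in shIRF7, a gap of 4.36 (SE 0.89, 20.5-fold, limma adjusted p = 0.0442). In empty vector alone the Cdc45 gap was 5.78 and in scramble 2.94. Mcm10, which helps activate the loaded helicase, measured 6.16 and 9.35 in empty vector, 6.98 and 9.55 in scramble, and 8.65, 7.33, 7.05 and 8.36 in shIRF7. The GINS subunits bind Cdc45 and the Mcm ring. Gins1 measured 6.0 and 8.90 in empty vector, 7.31 and 9.27 in scramble, and 9.11, 7.34, 6.96 and 8.43 in shIRF7. Gins2 measured 8.10 and 11.05 in empty vector, 8.77 and 11.38 in scramble, and 10.91, 9.14, 9.14 and 10.15 in shIRF7, and Gins3 measured 5.0 and 8.57 in empty vector, 6.72 and 8.53 in scramble, and 7.27, 6.09, 6.65 and 7.26 in shIRF7. These 3 subunits had gaps of 2.43, 2.77 and 2.69. Gins4 had a smaller gap that missed the threshold. It measured 11.31 and 12.31 in empty vector, 11.78 and 11.99 in scramble, and 11.98, 11.87, 11.78 and 12.50 in shIRF7, a difference of 0.60 (SE 0.25, limma adjusted p = 0.2), and its highest value was in shIRF7 replicate 4.

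The sliding clamp and its loader all passed the threshold, with a median gap of 2.25 over 6 members. Pcna, the clamp that tethers polymerases, measured 13.59 and 16.21 in empty vector, 14.76 and 16.45 in scramble, and 15.73, 14.62, 14.59 and 15.32 in shIRF7. Its gap was 2.16 (SE 0.40, 4.46-fold, limma adjusted p = 0.0386). Rfc1 to Rfc5 form the loader that opens the clamp. Among them Rfc5 had the largest gap and measured 5.90 and 9.73 in empty vector, 7.74 and 9.65 in scramble, and 10.23, 8.53, 7.85 and 9.10 in shIRF7. It is one of the members in which shIRF7 replicate 1 exceeded every control. The gap of Rfc5 was 2.87 (SE 0.58, 7.31-fold, limma adjusted p = 0.0429). Rfc2 measured 7.30 and 10.02 in empty vector, 7.82 and 9.79 in scramble, and 9.50, 8.92, 8.68 and 9.36 in shIRF7. Rfc3 measured 5.25 and 7.30 in empty vector, 5.43 and 6.97 in scramble, and 6.60, 6.11, 5.89 and 6.44 in shIRF7, and Rfc4 measured 8.03 and 11.31 in empty vector, 9.24 and 11.02 in scramble, and 10.66, 10.04, 10.39 and 10.44 in shIRF7. In Rfc2, Rfc3, Rfc4 and Rfc5 every shIRF7 array lay above both control replicate 1 arrays. The large subunit Rfc1 measured 10.74 and 11.63 in empty vector, 10.89 and 11.80 in scramble, and 11.26, 10.71, 11.18 and 11.19 in shIRF7, with the smallest gap of the role, 0.90 (SE 0.20, 1.87-fold, limma adjusted p = 0.0497).

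Of the 6 polymerase and primase genes 5 passed. The primase subunits Prim1 and Prim2, which lay down RNA primers, had gaps of 2.54 and 2.31. Prim1 measured 10.17 and 13.32 in empty vector, 11.53 and 13.47 in scramble, and 12.49, 12.20, 12.23 and 12.52 in shIRF7, and Prim2 measured 8.48 and 11.38 in empty vector, 9.90 and 11.62 in scramble, and 11.09, 10.40, 10.19 and 10.66 in shIRF7. In both genes, and in Pola2, all 4 shIRF7 arrays lay above the control replicate 1 arrays and below the control replicate 2 arrays. Polymerase alpha extends those primers. Its catalytic subunit Pola1 measured 6.05 and 8.38 in empty vector, 6.29 and 8.09 in scramble, and 7.35, 6.29, 6.43 and 6.58 in shIRF7, and its accessory subunit Pola2 measured 9.79 and 12.86 in empty vector, 10.75 and 12.69 in scramble, and 11.86, 10.95, 11.21 and 11.73 in shIRF7. Pole, the catalytic subunit of leading-strand polymerase epsilon, measured 4.82 and 8.03 in empty vector, 6.06 and 7.70 in scramble, and 7.79, 6.35, 6.90 and 6.84 in shIRF7. Pold1, that of polymerase delta, measured 4.24 and 4.87 in empty vector, 4.14 and 4.52 in scramble, and 4.94, 4.0, 4.31 and 4.48 in shIRF7, close on every array to 4.40, the mean of the negative control medians. The Pold1 gap of 0.51 (SE 0.21, limma adjusted p = 0.207) was the smallest of all members, and at that signal its size is uncertain.

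Lagging-strand processing had 2 members. Fen1, the nuclease that trims primers from Okazaki fragments, measured 5.67 and 10.32 in empty vector, 7.44 and 10.17 in scramble, and 9.17, 6.86, 7.38 and 8.92 in shIRF7, a gap of 3.69 (SE 0.55, 12.9-fold, limma adjusted p = 0.0288). Lig1, the ligase that seals the fragments, measured 5.48 and 6.20 in empty vector, 5.28 and 6.87 in scramble, and 6.29, 5.37, 5.48 and 5.79 in shIRF7, a gap of 1.16 (SE 0.28, limma adjusted p = 0.0607). Fen1 showed a wide gap in both vectors, while in Lig1 the gap was larger in scramble (1.59) than in empty vector (0.72).

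Nucleotide supply genes had a median gap of 2.49 over 4 members. Rrm2, the regulated subunit of ribonucleotide reductase, which makes deoxynucleotides, measured 9.43 and 14.51 in empty vector, 11.68 and 14.85 in scramble, and 14.48, 11.12, 11.14 and 13.27 in shIRF7. Its gap was 4.13 (SE 0.70, 17.5-fold, limma adjusted p = 0.0338). The large subunit Rrm1 measured 12.15 and 14.62 in empty vector, 13.48 and 14.67 in scramble, and 14.60, 13.05, 13.02 and 14.15 in shIRF7, and its gap of 1.83 (SE 0.43, limma adjusted p = 0.059) missed the threshold. In both subunits shIRF7 replicates 1 and 4 lay high and replicates 2 and 3 low. Tyms, which makes thymidylate, measured 8.83 and 12.29 in empty vector, 10.39 and 12.11 in scramble, and 11.34, 10.30, 10.76 and 10.93 in shIRF7. Tk1, the thymidine kinase of cycling cells, measured 5.47 and 8.10 in empty vector, 5.72 and 7.87 in scramble, and 7.65, 6.24, 5.98 and 6.61 in shIRF7.

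Of the 4 G1/S regulators 3 passed. Ccne1 and Ccne2, the E-type cyclins that activate Cdk2, had gaps of 2.95 and 2.94. Ccne1 measured 6.34 and 9.98 in empty vector, 7.90 and 10.16 in scramble, and 9.86, 6.89, 6.90 and 8.83 in shIRF7, and Ccne2 measured 5.64 and 9.43 in empty vector, 7.32 and 9.40 in scramble, and 9.04, 6.48, 7.09 and 7.76 in shIRF7. In both cyclins shIRF7 replicate 1 lay close under the control replicate 2 arrays, and shIRF7 replicate 2 lay below scramble replicate 1. E2f1, an activating E2F factor, measured 7.34 and 9.25 in empty vector, 7.47 and 9.45 in scramble, and 8.06, 7.08, 7.55 and 7.35 in shIRF7, a gap of 1.95 (SE 0.20, 3.85-fold, limma adjusted p = 0.0207). Its shIRF7 replicate 2 was the lowest of the 8 arrays. E2f2, another activator, measured 2.99 and 4.09 in empty vector, 3.33 and 4.08 in scramble, and 3.76, 3.84, 3.14 and 4.32 in shIRF7, on every array below 4.40, the mean of the negative control medians, and its gap of 0.92 (SE 0.21, limma adjusted p = 0.0546) missed the threshold.

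In shIRF7 the difference between replicates 1 and 2 ran the other way. A shared replicate number need not mean a shared culture or batch, which the labels do not state. Replicate 2 lay below replicate 1 while both controls ran the other way in 36 of 37 members, all but E2f2 (19.5% of all genes). The median difference of shIRF7 replicate 2 minus replicate 1 was -1.40, with a range from -3.37 for Rrm2 to 0.087 for E2f2. Within replicate 1, shIRF7 exceeded the mean of the controls in 37 of 37 members, by a median of 2.02. Within replicate 2 it lay below that mean in 37 of 37, with a median difference of -1.83. Both together were found in 28.6% of all genes. The difference between the gaps was tested in limma as an interaction on replicates 1 and 2 of the 3 groups, where shIRF7 has a single array per number and its spread is taken from the controls. The values therefore compare these particular arrays and not the conditions, and the shIRF7 arrays varied among themselves (an SD of 1.14 over the 4 arrays in Fen1 and 1.12 in Cdc6). The gap was lower in shIRF7 in 16 of 37 members (2.06% of all genes) and higher in 0 (1.35%). At an unadjusted p under 0.05 it was lower in 35 (12.3% of all genes). The median difference of the gaps was -3.80. It was -7.49 (SE 1.21, limma adjusted p = 0.0428) in Rrm2, -6.0 (SE 0.96, limma adjusted p = 0.0425) in Fen1, -5.33 (SE 0.66, limma adjusted p = 0.0378) in Cdc6 and -3.83 (SE 0.34, limma adjusted p = 0.0351) in Cdt1. The count was 32 members without empty vector replicate 1 (5.71% of all genes lower), 33 without scramble replicate 1 (9.98%) and 0 without replicate 2 of either control (0 of all genes). In each of these fits the spread came only from the control pair left intact, so the counts depend on which pair that was. The comparison of the gaps uses the same 4 control arrays as the control gap and is no independent result.

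**Figure D2:**
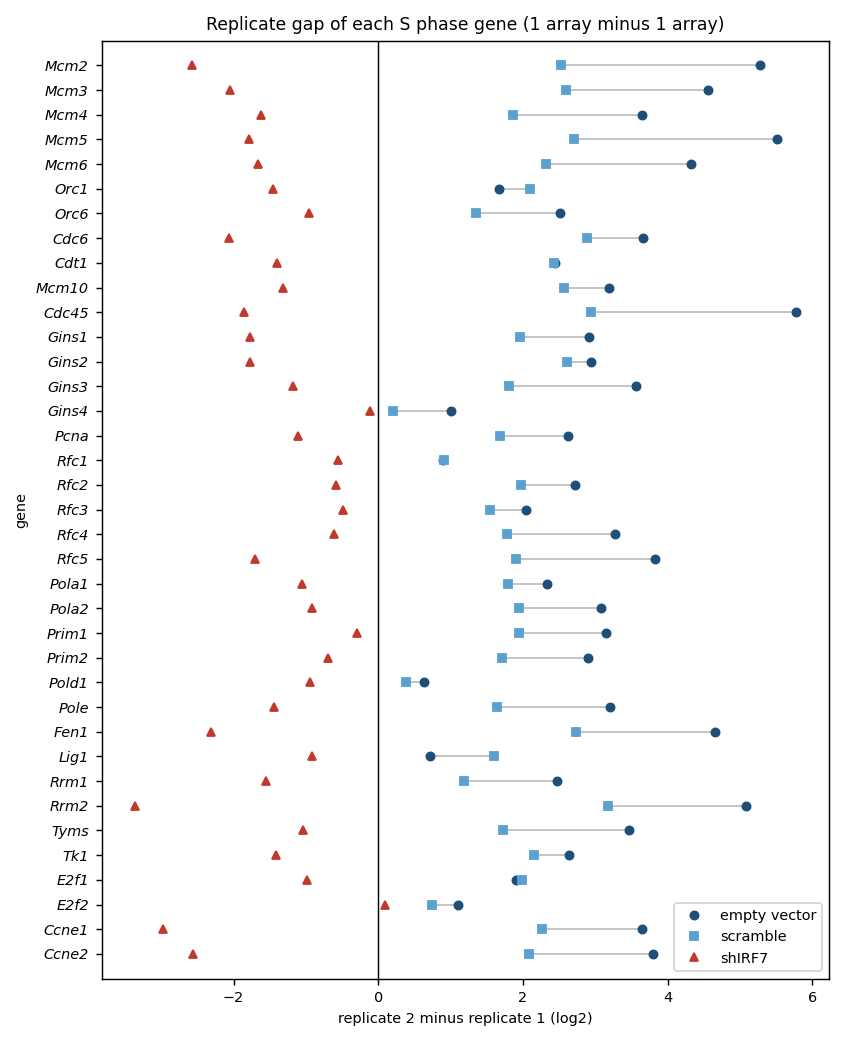
Replicate 2 minus replicate 1 on the log2 scale for each S phase gene, in empty vector (dark circles), scramble (light squares) and shIRF7 (triangles), each the difference of 1 array from another, with a line joining the controls. All 37 differences lie above 0 in empty vector (median 3.08) and scramble (median 1.94), and 36 of 37 lie below 0 in shIRF7 (median -1.40).

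The shIRF7 arrays lay mostly inside the range of the 4 controls. All 4 shIRF7 values fell within it in 31 of 37 members (27.7% of all genes), and the exceptions were Gins4, Rfc1, Rfc5, Pold1, E2f1 and E2f2. The lower edge of that range was mostly empty vector replicate 1, the lowest of the 8 arrays in 32 of 37 members. Scramble replicate 1 lay higher: shIRF7 replicate 2 was below it in 17 of 37 members and above it in 20, with a median difference of 0.093. In 0 members did all shIRF7 values lie below all controls (2.8% of all genes) or above them (2.58%). Position was expressed as a percent of the way from the mean of control replicate 1 (0%) to the mean of control replicate 2 (100%), over the 33 members with a gap above 1 (all but Gins4, Rfc1, Pold1 and E2f2). The median position was 82.2% for shIRF7 replicate 1, 26.5% for replicate 2, 29.5% for replicate 3 and 57.8% for replicate 4. Replicate 1 was nearer to control replicate 2 in 32 of 33 members and replicate 4 in 25, against 5 for replicate 2 and 3 for replicate 3. Measured against the scramble arrays alone the medians were 76.1%, 5.86%, 7.5% and 47.3%, and against the empty vector arrays alone 85.3%, 39.4%, 38.4% and 65.1%. The order thus had replicate 1 highest, replicate 4 next and replicates 2 and 3 lowest with either control, and the last pair changed places.

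**Figure D3:**
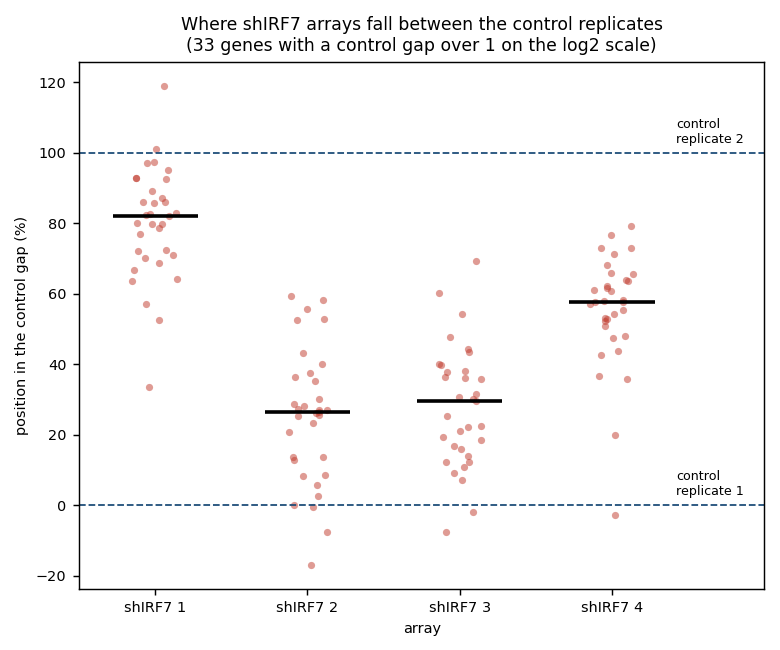
Position of each shIRF7 array within the control gap for the 33 S phase genes whose gap exceeds 1, as a percent of the way from the mean of control replicate 1 (0%) to that of control replicate 2 (100%), with 1 point per gene and bars at the medians. Medians are 82.2%, 26.5%, 29.5% and 57.8% for replicates 1 to 4.

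Members spread around these positions. E2f1 was the lowest member for replicates 1, 2 and 4, at 33.6%, -16.8% and -2.6%, and Ccne1 for replicate 3, at -7.55%. Rfc5 was the highest for replicates 1, 2 and 4, at 119.0%, 59.5% and 79.3%, and Rfc4 for replicate 3, at 69.3%. Among the shIRF7 arrays replicates 2 and 3 were the closest pair, with a median absolute difference of 0.26 over members and no common direction (16 members higher in replicate 2 and 21 in replicate 3). Replicate 4 lay above the mean of that pair in 37 of 37 members, by a median of 0.71. Replicate 1 lay above replicate 4 in 34 of 37, by a median of 0.63. Over all genes replicates 2 and 3 were also the closest pair of arrays in the series, with an SD of their difference of 0.322, against 0.325 for the control replicate 2 arrays. Irf7 was ordered otherwise, lowest in replicate 1 and highest in replicate 4. All 4 of these Irf7 values lay under the 95th percentile of the negative control probe sets, so their order is uncertain.

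Against both controls together, shIRF7 showed no called change of S phase genes. In limma on all 8 arrays, with the mean of empty vector and scramble as the reference, 0 of 37 members passed in either direction (0.0308% of all genes), and 0 had an unadjusted p under 0.05 (8.12% of all genes). The median difference was -0.027, with 16 members positive and 21 negative, against 0.0017 over all genes. E2f1 had the largest difference, -0.87 (SE 0.54, 95% interval -2.13 to 0.39, limma adjusted p = 0.76). Rfc5 differed by 0.67 (SE 0.90, 95% interval -1.42 to 2.76, limma adjusted p = 0.916), Cdc6 by -0.61 (SE 0.98, 95% interval -2.89 to 1.67, limma adjusted p = 0.933) and Pola1 by -0.54 (SE 0.58, 95% interval -1.89 to 0.81, limma adjusted p = 0.886). The interval was widest for Rrm2, from -3.16 to 2.93, and narrowest for Pold1, from -0.58 to 0.57. These limits do not mark the smallest change that would be called. Irf7, at -3.79 with an SE of 0.48, did not pass (limma adjusted p = 0.0692), and the SE of Rrm2 was 1.31. Changes within the limits, and larger ones, could thus be missed. The sign of the S phase median rested on single arrays. Leaving out empty vector replicate 1 gave a median of -0.83, and leaving out empty vector replicate 2 gave 0.69.

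**Figure D4:**
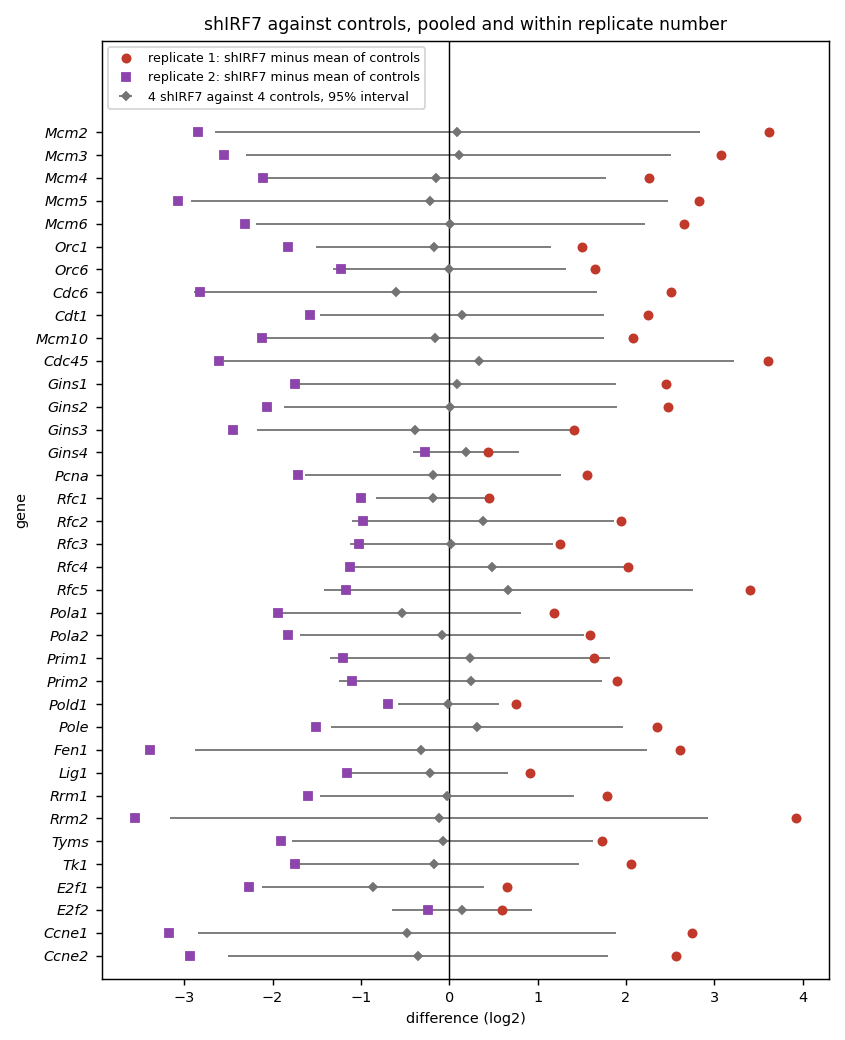
Log2 difference of shIRF7 from the mean of both controls for each S phase gene: diamonds with 95% intervals from limma on all 8 arrays, circles for replicate 1 alone and squares for replicate 2 alone. Diamonds run from -0.87 for E2f1 to 0.67 for Rfc5 and every interval includes 0, while all 37 circles lie above 0 (median 2.02) and all 37 squares below it (median -1.83).

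The choice of control moved the difference. Against scramble the median was -0.33, with 28 of 37 members lower, and 0 passed (0.00513% of all genes). Against empty vector it was 0.23, with 27 of 37 higher, and 0 passed (0.0% of all genes). Scramble against empty vector gave a median of 0.68 with 33 of 37 higher, and 0 passed (0.0% of all genes). In limma 0 members had an unadjusted p under 0.05 in any of these comparisons, against 6.14%, 5.84% and 1.93% of all genes. These comparisons share arrays. Without empty vector replicate 1 the median of scramble against empty vector was -1.04, and without empty vector replicate 2 that of shIRF7 against empty vector was 1.78.

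Other genes of replication showed the control gap as well, and each list's counts stand against 4.97% of all genes higher and 3.3% lower. Among 33 other replisome and checkpoint genes, 20 were higher in control replicate 2 in limma and 1 was lower, with a median of 1.87. Cdc7, the kinase that fires origins, differed by 3.89 (SE 0.79, limma adjusted p = 0.0434), the fork protein Wdhd1 by 3.77 (SE 0.36, limma adjusted p = 0.0207) and the fork protection factor Timeless by 3.41 (SE 0.53, limma adjusted p = 0.0302). The lower gene was Pold4, the small subunit of polymerase delta, named after its value was seen. Pold4 measured 10.01 and 8.84 in empty vector, 9.71 and 8.54 in scramble, and 9.63, 10.03, 9.57 and 9.77 in shIRF7, a difference of -1.17 (SE 0.22, limma adjusted p = 0.0402). Of 28 E2F targets of chromatin assembly and repair 22 were higher and 0 lower, with a median of 2.75. Uhrf1, which guides maintenance DNA methylation to new strands, differed by 4.11 (SE 0.66, limma adjusted p = 0.0317) and Tcf19 by 4.15 (SE 0.80, limma adjusted p = 0.0414), whereas E2f8, a repressive E2F, missed the threshold at 3.94 (SE 0.93, limma adjusted p = 0.0591).

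Of 13 genes of nucleotide metabolism 7 were higher and 0 lower (4.97% and 3.3% of all genes), with a median of 1.51. Dck, which phosphorylates deoxycytidine, differed by 2.80 (SE 0.53, limma adjusted p = 0.0405) and Umps, which makes uridine monophosphate, by 2.39 (SE 0.33, limma adjusted p = 0.0263). Dctpp1, a pyrophosphatase of deoxycytidine triphosphate, differed by 1.86 (SE 0.46, limma adjusted p = 0.0668). The negative values of this list were those of Dguok (-0.56), Tk2 (-0.50), Rrm2b (-0.30) and Samhd1 (-0.19). Of these 4, which were named after their values were seen, 0 passed in limma, and 2 (Dguok and Tk2) had an unadjusted p under 0.05. Dguok and Tk2 are the deoxynucleoside kinases of mitochondria, and Rrm2b is the p53-induced subunit of ribonucleotide reductase.

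G1 cyclins, Rb proteins and inhibitors were divided. Of 19 such genes 4 were higher in limma and 0 lower (4.97% and 3.3% of all genes), and the median was 0.24. At an unadjusted p under 0.05, 5 were higher (13.7% of all genes) and 5 lower (12.4%). Cdk2, the kinase partner of cyclins E and A, differed by 2.73 (SE 0.49, limma adjusted p = 0.0367) and the inhibitor Cdkn2d by 2.23 (SE 0.26, limma adjusted p = 0.0228), while Ccna2, cyclin A, missed the threshold at 3.97 (SE 0.93, limma adjusted p = 0.0586). The other called members were Ccnd3 and E2f4. Rbl2, an Rb relative that represses E2F genes in resting cells, measured 12.32 and 9.95 in empty vector, 11.08 and 9.79 in scramble, and 9.90, 10.49, 10.74 and 10.25 in shIRF7, a difference of -1.83 (SE 0.41, limma adjusted p = 0.0545). Cdkn2a, the locus of the inhibitor p16, measured 6.93 and 4.43 in empty vector, 5.24 and 4.10 in scramble, and 3.60, 3.37, 3.20 and 5.38 in shIRF7, a difference of -1.82 (SE 0.54, limma adjusted p = 0.099). On 0 of 8 arrays did Cdkn2a pass the 95th percentile of negative control probe sets, so its values lie near background. Rbl2 was highest in empty vector replicate 1, as were 19.8% of all genes. Both were named after their values were seen.

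**Figure D5:**
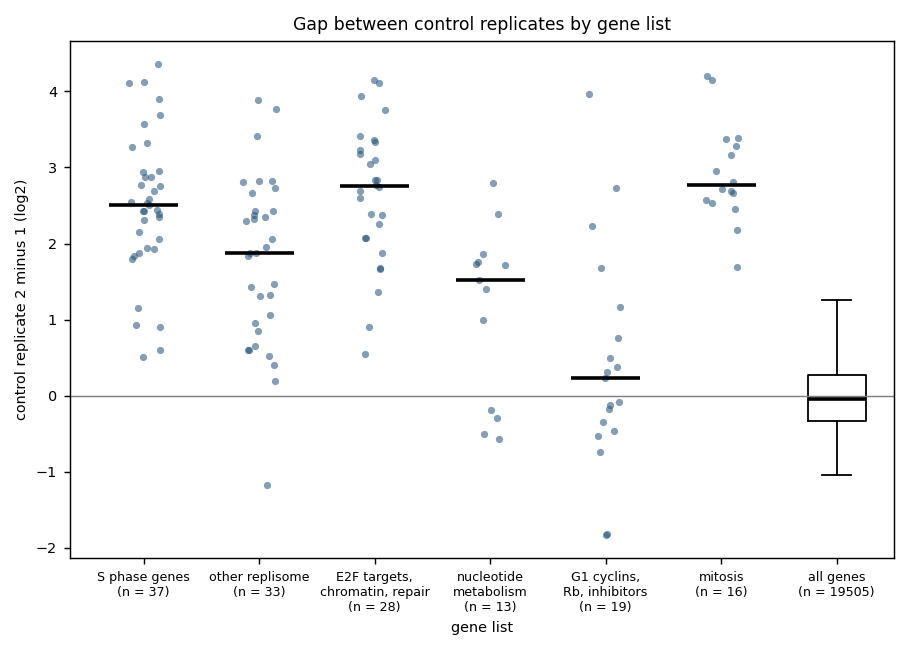
Control gap (replicate 2 minus replicate 1, log2) of the S phase genes and of each further list, with 1 point per gene and bars at the medians, beside a box for all 19505 genes (median, 25th and 75th percentiles, whiskers at the 5th and 95th). The median is 2.51 for S phase genes, 2.77 for mitosis and 0.24 for G1 cyclins, Rb proteins and inhibitors.

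Mitosis genes, which act after S phase, had a control gap with a median of 2.77 over 16 measured genes, of which 7 were higher and 0 lower (4.97% and 3.3% of all genes). Aurkb, a kinase of chromosome segregation, differed by 4.20 (SE 0.83, limma adjusted p = 0.0425), while Cdc20, the activator of the anaphase complex, missed the threshold at 4.15 (SE 0.92, limma adjusted p = 0.0524), as did the spindle checkpoint kinase Ttk at 3.39 (SE 0.80, limma adjusted p = 0.0587). Mki67, the proliferation marker, measured 10.83 and 14.69 in empty vector, 13.71 and 14.75 in scramble, and 14.51, 13.67, 13.69 and 13.62 in shIRF7. Their shIRF7 arrays sat closer together than those of the S phase genes. The medians over mitosis genes, each value taken from the gene's own mean, were 0.61, -0.12, 0.057 and 0.48 in shIRF7 replicates 1 to 4, against 0.72, -0.58, -0.46 and 0.22 for S phase genes. This difference between the lists was not tested. Against both controls all 16 mitosis genes were positive, with a median of 0.46, and 0 passed or had an unadjusted p under 0.05 in limma. Empty vector replicate 1 was the lowest of the 8 arrays in 16 of 16. Against empty vector 16 were positive, with a median of 1.10, but against scramble 7 were positive and 9 negative, with a median of -0.10. The E2F letters were found in 1 of 15 mitosis genes with a window. The cell-cycle homology region, searched as TTTGAA on both strands, was found in 12 of these 15, in 17.2% of S phase genes with a window and in 17.8% of measured genes with one.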

How the data were processed

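Total RNA was measured on 8 biotin-labelled Affymetrix mouse arrays. The submitters' processing notes name RMA and Affymetrix Expression Console 1.4.1.46 as what the authors used, and the deposited log2 values were taken as they stand. For the probe sets' genome build, the sources used here give none. Of 28846 probe sets 19572 had 1 gene symbol and 9274 had none. Where a gene had several probe sets (55 genes), the one with the highest mean was kept, which left 19505 genes. The number of array columns left unused was 0.

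Differences were fitted to the deposited log2 values by lmFit and eBayes of limma 3.58.1 (R 4.3.3), with Benjamini-Hochberg adjustment over all genes and a threshold of 0.05. The 3 groups shared a spread per gene on 8 arrays (5 residual and 2.68 prior degrees of freedom). The control gap used the 4 controls, and the interaction 6 arrays (each 2 residual and 3.73 prior degrees of freedom). The number of arrays limits the precision. Each fit was tested on simulated data, with changes placed in 200 genes drawn from all genes. The control gap fit recovered 0.4% of log2 changes of 1, 45.6% of 2 and 83.2% of 4. The interaction recovered 0.4% of log2 changes of 2, 55.6% of 4 and 84.4% of 8. The fit of shIRF7 against both controls recovered 41.6% of log2 changes of 1 and 96% of 4. These rates are averages over genes drawn from all genes, with noise drawn separately for each gene. They are not rates for the S phase genes, which moved together and some of which had a wide spread (SE 1.31 in Rrm2). In the data Irf7, at -3.79, did not pass that fit, and Rfc1 passed the control gap fit at 0.90. Small gaps seldom passed in the simulation. Irf7 was also compared with a two-sided exact permutation test over 70 assignments.

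Members, lists and tests were chosen with earlier results of these data known. Array values were to be given for the members with the largest and smallest control gap of each role and for those past a test, and for each further list up to 3 genes with the largest gap. Genes said to be named after their values were seen fall outside that rule. So do Ccnd3 and E2f4, named because the control gap fit called them, and Mcm2, whose array values were given although it passed no test. Alternatives were a filter on dim genes (5.40 on the log2 scale), cyclic loess, eBayes with trend and robust fitting, averaging of probe sets per gene, both controls as 1 group, blocks by replicate number, vector or group, other gap minimums, single controls, and each array left out. The scramble arrays alone were added after seeing the data. Promoter windows came from RefSeq.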

Additional observations from a re-analysis of the deposited data

Results flagged for a closer look

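In the limma interaction test 16 S phase genes passed with a lower gap of replicate 2 over replicate 1 in shIRF7 than in the controls. Each shIRF7 replicate number is a single array, and the spread came from the controls alone. The labels do not say whether the numbers pair shIRF7 arrays with controls, so the values compare these arrays and not the conditions. On the log2 scale the difference of the gaps was -7.49 in Rrm2, -6.0 in Fen1, -5.92 in Ccne1, -5.62 in Mcm3, -5.50 in Ccne2 and -5.33 in Cdc6. It was -4.54 in Gins2, -4.20 in Mcm10, -3.83 in Cdt1, -3.80 in Tk1, -3.42 in Pola2 and -3.33 in Orc1. In the remaining genes it was -3.13 in Pola1, -2.92 in both Rfc2 and E2f1 and -2.28 in Rfc3. In all 16 both controls had higher values in replicate 2 and shIRF7 had higher values in replicate 1.

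Among the shIRF7 arrays Rfc1, the large subunit of the clamp loader, was far lowest in replicate 2, at 10.7. The proliferation marker Mki67 was far highest in replicate 1, at 14.5. By chance about 1 in 20 groups of 4 arrays would stand out in this way, so such flags would arise among 37 members alone.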

How the results depend on the processing

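The direction of the S phase median was kept in the control gap and in the gap difference between shIRF7 and controls under every setting tried, with the control median between 1.26 and 3.09. Leaving out each array in turn gave between 0 and 34 called members for the control gap and between 0 and 33 for the gap difference. The control count was also 0 (0 of 19505 genes) when replicates 1 and 2 of all 3 groups were fitted with the group as a block. It was 35 with the vector as a block, where 2013 of 19505 genes were higher. With the filter on dim genes it was 34 of 35, where 1259 of 9791 genes were higher. The main fit gave 31, where 970 of 19505 genes were higher, and the other settings also gave 31 (849 to 973 of 19505). For the gap difference the filter gave 18 of 35 members (631 of 9796 genes lower). The other settings gave 16 (376 to 406 of 19505 genes lower). Where 1 array was left to stand for a group or replicate number, it was assumed to vary like the others. For the control gap and the gap difference, the spread then came only from the control pair left intact. Those counts therefore depend on which pair that was.

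Medians near 0 turned with single arrays. Leaving out each array gave a range from -0.83 to 0.69 for shIRF7 against both controls, -1.28 to 0.64 against scramble, -1.21 to 1.78 against empty vector, and -1.04 to 2.10 for scramble against empty vector, with 0 members called in each. In the same comparison with both controls Rfc5 ranged from -0.29 (no empty vector replicate 1) to 1.63. Cdc6 ranged from -1.52 to 0.31 and Pola1 from -1.12 to 0.044, both highest when empty vector replicate 2 was left out, and Cdc6 was 0.11 when scramble replicate 2 was. Irf7 ranged from -4.10 to -3.31 and passed limma without shIRF7 replicate 1 (-3.31). The position of shIRF7 replicate 3 was 7.5% with the scramble arrays alone, where the median control gap was 1.94.

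With the replicate number as a block (replicate block) the median of shIRF7 against both controls was 0.0945, against scramble -0.25 and against empty vector 0.28. For scramble against empty vector it was 0.68. In each 0 members were called, as without the block. Over all genes 0 were called in each of these fits with the block. Deviations of same-numbered arrays from their group means correlated over genes at 0.76 between empty vector and scramble. Between these and shIRF7 they correlated at -0.31 and -0.22 for replicate 1, and at -0.21 and -0.16 for replicate 2. Such values follow from the direction of the replicate differences, so they cannot show whether a number marks a shared culture or batch. Signal near the negative controls limits the 9 members that exceeded their 95th percentile on no array (Orc1, Gins3, Rfc3, Pola1, Pold1, Pole, Lig1, Tk1 and E2f2). It also bears on the 15 members that exceeded it on some arrays only. Among these are Cdc45 (6 of 8 arrays), Mcm5 (7) and Fen1 (4), so the size of their gaps is uncertain too.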
